A study of Mus musculus with 5 samples.

Results

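The RAB GTPases of vesicle traffic were taken by name, as every row of the deposited table whose symbol was RAB followed by a number and at most 1 letter. Of the 64 such rows, RAB1C was left out as a pseudogene, which gave 63 members among 50867 rows. The secretory group had 28 members, the early and recycling endosome group 16, the late endosome group 10, and 9 had another or an unsettled place. RNA came from Ba/F3, a mouse pro-B cell line that grows on interleukin-3, infected with lentivirus, and there was 1 library in each of 5 groups. The groups were labelled S_PXT1_K118R, S_PXT1, WT_K118R, WT and PMSCV. PMSCV is the name of a viral vector and was the reference, and K118R names a lysine to arginine substitution. The labels do not spell out S or WT, and what else the constructs carry is not given in the labels. All 5 groups shared the cell line and the lentiviral infection. No difference below has a replicate check, so no p-value was computed. Intervals are exact 95% counting intervals, which cover counting error only.

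RAB proteins are small GTPases that mark the membranes between which vesicles move. Each switches between a GDP-bound form held in the cytosol by a GDP dissociation inhibitor and a GTP-bound form that sits on a membrane and recruits effectors such as tethers and motors. Exchange factors switch a RAB on and GTPase-activating proteins switch it off. The family is usually ordered by the compartment it serves, from the secretory route through early and recycling endosomes to late endosomes and lysosomes.

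The table lists human gene identifiers, symbols and coordinates, although the cells are labelled as mouse, and which genome the reads were aligned to is not stated. Mouse sequences below are shown for the labelled species. Totals ran from 250409 to 351693 counts. Counts were found for 7044 genes in S_PXT1_K118R and 7393 in S_PXT1, against 11492 to 11712 in the other 3 libraries. Of 15 markers of Ba/F3 and blood cells 2 to 8 had a count in a library, and their sum lay between 178 CPM (CPM is the count relative to library size, here adjusted by TMM, the trimmed mean of M values), in WT_K118R, and 670 CPM, in WT. IL3RA, CD79A, CD79B, IGLL1, VPREB1 and VPREB3 were at 0 counts in all 5, whereas IKZF1, a lymphoid transcription factor, had 24 to 34. SPI1 had 128 counts in S_PXT1_K118R, 139 in S_PXT1, 1 in WT_K118R, 173 in WT and 113 in PMSCV. SPI1 made up most of the blood cell marker sum in every library except WT_K118R. Epithelial and stromal markers were counted as well. Of 21 such markers, 4 had counts in S_PXT1_K118R and in S_PXT1, with summed levels of 751 and 690 CPM. Most of that was collagen, with COL1A1 at 91 and 100 counts and COL3A1 at 95 and 73. CDH1, DSP, KLK3, KRT5, KRT6A, KRT14 and KRT17 had 0 counts in both libraries. In WT_K118R, WT and PMSCV 18, 21 and 21 of the 21 markers had counts, with sums of 3749, 4109 and 3048 CPM. Plasma cell markers, 6 in all, summed to between 11.8 and 15.6 CPM in the S_PXT1_K118R and S_PXT1 libraries and to between 104 and 2301 CPM in the other 3. The part of these marker reads in the RAB results was not tested.

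RAB genes together took 0.615% of all counts in S_PXT1_K118R, 0.623% in S_PXT1, 0.653% in WT_K118R, 0.675% in WT and 0.604% in PMSCV. A few widely used family members made up most of that. A mean of at least 10 counts over the 5 libraries was reached by 14 members, 6 secretory, 7 of early and recycling endosomes and 1 of late endosomes. These 14 held between 94.5% and 97.9% of the RAB counts of a library. Of the remaining 49 members, 10 had 0 counts in every library. At 0 counts the upper end of the exact interval was 10.8 to 14.5 CPM, depending on the library. The members nearest the limit were RAB11B, with a mean of 10.2 counts, and RAB1B, with 8.60.

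Per base of gene model (FPKM, the authors' deposited values), RAB14, which acts between the Golgi and endosomes, and RAB1A, which carries vesicles from the endoplasmic reticulum to the Golgi, were the highest. Their FPKM ranged from 242 to 297 and from 205 to 330 over the 5 libraries. RAB8A, a RAB of exocytosis, followed with FPKM from 127 to 165. RAB6A of the Golgi, RAB10 of surface delivery and RAB11A of recycling endosomes had means of 70.4, 61.5 and 61.0 FPKM, and their ranges overlapped. RAB18, found on the endoplasmic reticulum and lipid droplets, and RAB21, an endosomal RAB of integrin traffic, had means of 32.3 and 29.4 FPKM, and their ranges overlapped. The other 6 lay between 3.25 and 11.6 FPKM on average, and RAB7A had the widest range of these, 1.51 to 25.3 FPKM. The rows carry human identifiers and the cells are mouse, so this is an order of deposited values. How well reads matched each gene model was not tested.

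**Figure D1:**
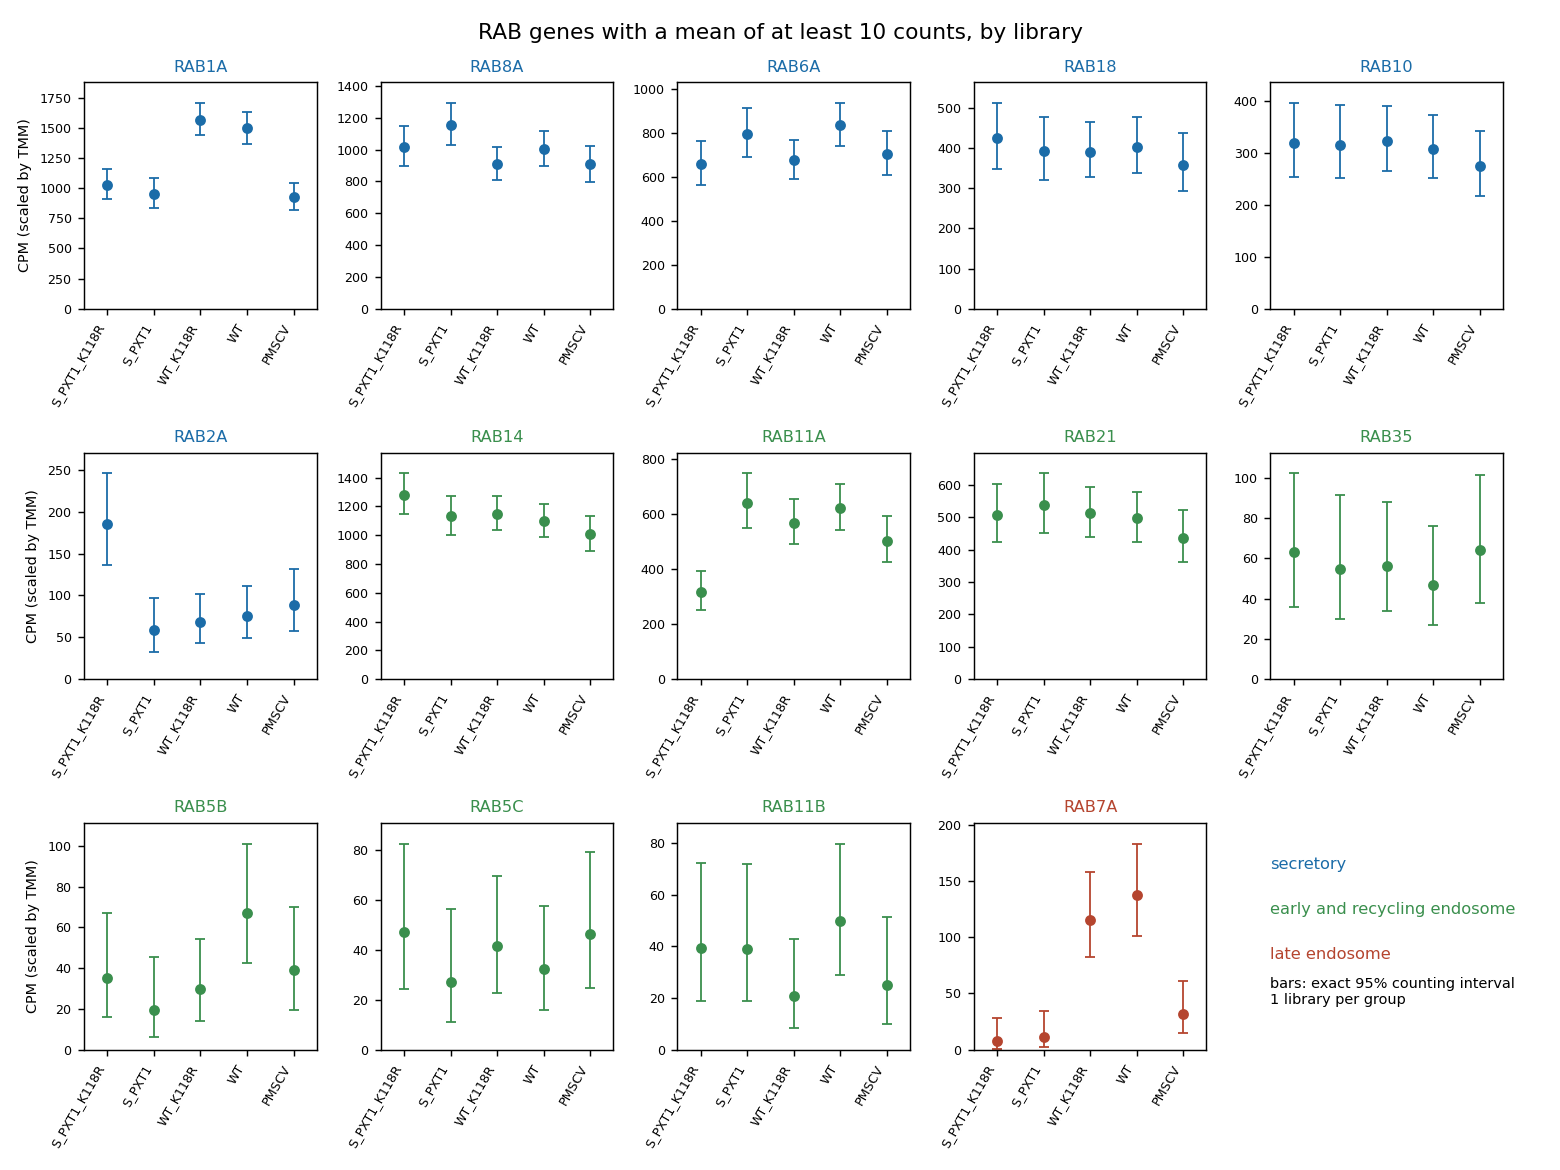
Level of the 14 better-counted RAB genes (mean of 10 counts or more), in TMM-scaled CPM, for the 5 libraries, with exact 95% counting intervals; every vertical axis starts at 0 and each point is 1 library. RAB7A stands at 116 and 138 CPM in WT_K118R and WT against 32.0 CPM in PMSCV and 7.86 and 11.7 CPM in S_PXT1_K118R and S_PXT1, while RAB10, RAB18 and RAB21 lie near level.

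In the secretory group, RAB1A (ENSG00000138069, chromosome 2, 65070701 to 65130106) was high in 2 libraries. It had 262 counts in S_PXT1_K118R and 245 in S_PXT1, against 529 in WT_K118R and 512 in WT, and 260 in PMSCV. On the CPM scale these are levels of 1030, 955, 1568, 1497 and 925. In these bulk samples fewer cells of a type and less RNA per cell cannot be told apart. The WT_K118R and WT libraries were the high ones, and their counting intervals did not overlap those of the other 3. RAB1A was 1.62-fold higher in WT than in PMSCV (1.39 to 1.89). It was 1.57-fold lower in S_PXT1 than in WT (1.34 to 1.83) and 1.52-fold lower in S_PXT1_K118R than in WT_K118R (1.31 to 1.77). The last pair shares no library with the pair before it. Between S_PXT1 and PMSCV the fold was 1.03 (0.86 to 1.23).

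RAB1B, a close relative of RAB1A with the same role, had 6 counts in S_PXT1_K118R, 3 in S_PXT1, 11 in WT_K118R, 11 in WT and 12 in PMSCV. Reads that match both genes could be assigned to either. In mouse reference transcripts (GENCODE M21) the coding sequences of Rab1a and Rab1b were identical at 77.6% of aligned bases, and their longest shared run was 38 bases. The shared run is shown in capitals with 15 bases on either side. On these mouse transcripts, a read lying wholly inside it cannot be told apart between the pair. The counts stand on human identifiers, so the share of such reads in them was not measured.
Rab1a, coding bases 292 to 359: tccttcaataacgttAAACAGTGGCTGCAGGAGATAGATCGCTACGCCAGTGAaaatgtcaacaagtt
Rab1b, coding bases 283 to 350: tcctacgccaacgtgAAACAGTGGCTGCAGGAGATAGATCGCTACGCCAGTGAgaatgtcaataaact
With both genes summed, the fold of WT over PMSCV was 1.58 (1.36 to 1.84) and that of S_PXT1 over WT was 0.63 (0.54 to 0.74).

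RAB2A (ENSG00000104388, chromosome 8, 60516857 to 60623627), which acts between the endoplasmic reticulum and the Golgi, was high in a single library. It had 47 counts in S_PXT1_K118R, 15 in S_PXT1, 23 in WT_K118R, 26 in WT and 25 in PMSCV. The level of 185 CPM in S_PXT1_K118R compares with 58.5 to 88.9 CPM in the other 4. RAB2A was 3.16-fold higher in S_PXT1_K118R than in S_PXT1 (1.74 to 6.08) and 2.71-fold higher in S_PXT1_K118R than in WT_K118R (1.61 to 4.68). Its fold of WT_K118R over WT was 0.90 (0.49 to 1.63). No other of the 14 members had a library at least 2-fold above all the rest, or at least 2-fold below all the rest. The smallest of the 4 ratios of RAB2A was 2.08. Summed with its relative RAB2B, the fold of S_PXT1_K118R over S_PXT1 was 3.36 (1.86 to 6.44).

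The other secretory members were near level. RAB8A had 259 counts in S_PXT1_K118R, 296 in S_PXT1, 307 in WT_K118R, 343 in WT and 255 in PMSCV. Its fold of S_PXT1 over PMSCV was 1.27 (1.07 to 1.51) and that of WT over PMSCV 1.11 (0.94 to 1.31). RAB6A had 167, 204, 228, 285 and 198 counts in the same order, and its fold of WT_K118R over WT was 0.81 (0.68 to 0.97). In both pairs RAB6A was the lower in the K118R library, but the fold of S_PXT1_K118R over S_PXT1, 0.83 (0.67 to 1.02), had an interval that reached 1. RAB18 had 108, 101, 132, 138 and 101 counts, and its folds in the 6 comparisons lay between 0.97 and 1.12. RAB10 had 81, 81, 109, 105 and 77 counts, and its folds lay between 0.99 and 1.15. These 4 genes stayed within 1.5-fold in all 6 comparisons.

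Summed over all 28 members, the secretory group was at 3695 CPM in S_PXT1_K118R, 3747 in S_PXT1, 4078 in WT_K118R, 4290 in WT and 3442 in PMSCV. The sum was 1.25-fold higher in WT than in PMSCV (1.15 to 1.35), and without RAB1A 1.11-fold (1.005 to 1.22). Without RAB1A, the sum had a fold of 0.999 in S_PXT1 over WT (0.906 to 1.102), against 0.87 with it (0.80 to 0.95).

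**Figure D2:**
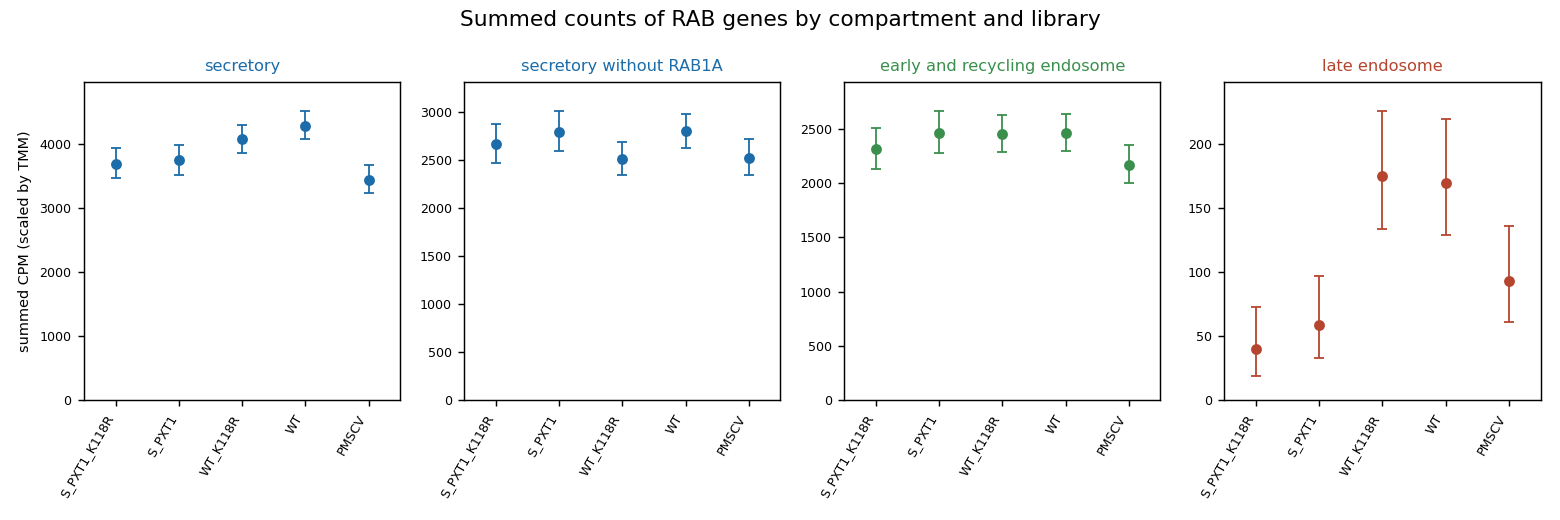
Summed level of all RAB genes of a compartment in each library, in scaled CPM with exact 95% counting intervals; the second panel leaves out RAB1A, axes start at 0 and differ between panels, and each point is 1 library. The late endosome sum is 175 and 170 CPM in WT_K118R and WT and between 39.3 and 92.5 CPM in the other 3 libraries.

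Among RABs of early and recycling endosomes, RAB11A (ENSG00000103769, chromosome 15, 65726054 to 65891991) was low in S_PXT1_K118R. RAB11A returns receptors from recycling endosomes to the cell surface. It had 81 counts in S_PXT1_K118R, 165 in S_PXT1, 192 in WT_K118R, 213 in WT and 142 in PMSCV. The level of 318 CPM in S_PXT1_K118R compares with 505 to 643 CPM elsewhere, and its counting interval lay below those of the other 4 libraries. RAB11A was 2.02-fold lower in S_PXT1_K118R than in S_PXT1 (1.54 to 2.67) and 1.79-fold lower in S_PXT1_K118R than in WT_K118R (1.37 to 2.35). Its fold of WT_K118R over WT was 0.91 (0.75 to 1.12). The first of these folds lies at the 2-fold limit, and it was under 2-fold with total counts or FPKM in place of the scaled counts.

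RAB11B, the close relative of RAB11A, had 10 counts in S_PXT1_K118R, 10 in S_PXT1, 7 in WT_K118R, 17 in WT and 7 in PMSCV. It was 2.40-fold lower in WT_K118R than in WT, with an interval from 0.944 to 6.84 that included 1. The 2 mouse coding sequences were identical at 75.7% of aligned bases but shared no run longer than 14 bases, shown in capitals at their starts.
Rab11a, coding bases 1 to 41: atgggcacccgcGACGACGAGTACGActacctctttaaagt
Rab11b, coding bases 1 to 41: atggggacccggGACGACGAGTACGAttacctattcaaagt
Summed with RAB11B and the epithelial member RAB25, the fold of S_PXT1_K118R over S_PXT1 was 0.52 (0.40 to 0.68). RAB25 had 0 counts in S_PXT1_K118R and S_PXT1, 2 in WT_K118R, 5 in WT and 0 in PMSCV. RAB11B overlaps ELAVL1 on the other strand, which had 2 to 35 counts, and whether the counting used strand is not stated.

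RAB14 and RAB21 were near level in all 5 libraries. RAB14 had 326 counts in S_PXT1_K118R, 290 in S_PXT1, 388 in WT_K118R, 375 in WT and 283 in PMSCV, and its folds in the 6 comparisons lay between 1.03 and 1.13. RAB21 had 129, 138, 173, 170 and 123 counts in the same order, with folds between 0.94 and 1.23. RAB35, a RAB of fast recycling, had 16 counts in S_PXT1_K118R, 14 in S_PXT1, 19 in WT_K118R, 16 in WT and 18 in PMSCV, and its folds lay between 0.73 and 1.20.

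The RAB5 genes, which control fusion of early endosomes, had few counts. RAB5B had 9 counts in S_PXT1_K118R, 5 in S_PXT1, 10 in WT_K118R, 23 in WT and 11 in PMSCV. WT was the high library, and RAB5B was 3.45-fold lower in S_PXT1 than in WT (1.28 to 11.6) and 2.27-fold lower in WT_K118R than in WT (1.04 to 5.34). The 2.01-fold lower value in S_PXT1 than in PMSCV had an interval from 0.64 to 7.37 that included 1. RAB5C had 12 counts in S_PXT1_K118R, 7 in S_PXT1, 14 in WT_K118R, 11 in WT and 13 in PMSCV, and RAB5A had 0 to 8. The 3 genes summed to 21 counts in S_PXT1_K118R, 16 in S_PXT1, 26 in WT_K118R, 39 in WT and 32 in PMSCV. The summed fold was 0.55 in S_PXT1 over WT (0.285 to 1.001) and 0.68 in WT_K118R over WT (0.39 to 1.14), so neither comparison was past 2-fold once the relatives were added. Over all 16 members, the early and recycling endosome group was at 2315 CPM in S_PXT1_K118R, 2468 in S_PXT1, 2457 in WT_K118R, 2465 in WT and 2173 in PMSCV, and its sum had a fold of 1.001 in S_PXT1 over WT (0.902 to 1.111).

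In the late endosome group RAB7A was the one member with a mean of at least 10 counts. RAB7A (ENSG00000075785, chromosome 3, 128726122 to 128814796, on human coordinates of unstated build) directs late endosomes and autophagosomes to fuse with lysosomes. It had 2 counts in S_PXT1_K118R, 3 in S_PXT1, 39 in WT_K118R, 47 in WT and 9 in PMSCV. WT_K118R and WT were high, PMSCV lay between, and S_PXT1_K118R and S_PXT1 were at or under the floor of 3 counts. The intervals of WT_K118R and WT, which ran from 82.2 to 158 and from 101 to 183 CPM, did not overlap those of the other 3 libraries.

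RAB7A was 4.29-fold higher in WT than in PMSCV (2.08 to 9.97). It was 11.8-fold lower in S_PXT1 than in WT (3.78 to 59.0). In a pair that shares no library with that one, it was 14.7-fold lower in S_PXT1_K118R than in WT_K118R (3.81 to 126), on 2 counts. RAB7A reached a mean of 10 counts only through WT and WT_K118R, with a mean of 4.67 counts without them. The 2 pairs are therefore not taken as support for each other. The fold of RAB7A in S_PXT1 over PMSCV was 0.37, with an interval from 0.06 to 1.46 that included 1. The fold of WT_K118R over WT was 0.84 (0.54 to 1.31), and no fold was taken between S_PXT1_K118R and S_PXT1. The sum of epithelial and stromal markers was 4109 CPM in WT and 3048 CPM in PMSCV. Single markers varied more, and KRT4 had 0 counts in WT_K118R, 262 in WT and 14 in PMSCV. In the same 3 libraries KRT13 had 1, 266 and 9 counts. The epithelial and stromal marker sum was 751 CPM in S_PXT1_K118R and 690 CPM in S_PXT1. The part of those marker reads in the RAB7A levels was not tested.

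Both RAB7A and RAB1A were higher in each of WT_K118R and WT than in each of the other 3 libraries, 2 of 14 members, against 11.1% of all 2322 genes that reached a mean of 10 counts. RAB7A reached that mean only through these 2 libraries, with a mean of 4.67 counts in the other 3, against 256 for RAB1A, so nothing is read from the count of 2. The 250 bases before the annotated start of their mouse genes (RefSeq, GRCm38.p6) are shown for these 2 members that were high in the same libraries. Capitals mark GGGCGG or CCAAT on either strand.
Rab7, chr6:88045271-88045520, minus strand: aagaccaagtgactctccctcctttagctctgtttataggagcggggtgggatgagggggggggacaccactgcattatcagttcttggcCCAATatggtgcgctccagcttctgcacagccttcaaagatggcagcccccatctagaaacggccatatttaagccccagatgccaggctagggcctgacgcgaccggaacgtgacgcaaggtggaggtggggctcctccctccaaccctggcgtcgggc
Rab1a, chr11:20201162-20201411, plus strand: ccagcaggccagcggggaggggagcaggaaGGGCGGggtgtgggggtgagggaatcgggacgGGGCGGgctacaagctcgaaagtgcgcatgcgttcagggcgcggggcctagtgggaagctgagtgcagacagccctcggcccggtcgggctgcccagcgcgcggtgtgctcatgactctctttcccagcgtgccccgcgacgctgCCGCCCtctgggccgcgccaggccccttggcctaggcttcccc
The Rab7 window held 0 matches to GGGCGG, 1 to CCAAT and 1 to TATAAA, and the Rab1a window 3, 0 and 0. Neither held CACGTG, the E-box core bound by TFEB and MYC among others, which was present in 6.02% of the 32851 windows of the same length. GGGCGG was present in 32.7%, CCAAT in 33.8% and TATAAA in 12.4% of them, counted on both strands. Rab7 has a second annotated start, whose window, not shown, held 2 matches to GGGCGG and 0 to each of the other motifs.

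The other late endosome members were sparse. RAB12, which acts in traffic to lysosomes, had 5 counts in S_PXT1_K118R, 11 in S_PXT1, 11 in WT_K118R, 5 in WT and 8 in PMSCV. RAB29, a RAB of the Golgi and stressed lysosomes, had 3, 0, 4, 4 and 8 counts in the same order. RAB9A, which returns receptors from late endosomes to the Golgi, had 1 count in S_PXT1 and in WT_K118R and 0 in the other 3, and RAB38, a RAB of melanosomes, was at 0 in all 5. Over all 10 members the group was at 39.3 CPM in S_PXT1_K118R, 58.5 in S_PXT1, 175 in WT_K118R, 170 in WT and 92.5 in PMSCV. RAB7A supplied 39 of 59 counts of this sum in WT_K118R and 47 of 58 in WT, against 9 of 26 in PMSCV, and the summed fold was 1.83 in WT over PMSCV (1.14 to 3.04).

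Counts of members at or past a 2-fold difference stayed small in every comparison. With S_PXT1 over PMSCV, 0 members were higher and 2 lower, RAB7A and RAB5B, where 3.70% of all 2322 genes were higher and 15.3% lower (19.0% either way). With WT over PMSCV 1 was higher, RAB7A, and 0 lower, against 3.83% and 3.88% of all genes (7.71% either way). With S_PXT1 over WT 0 were higher and 2 lower, RAB7A and RAB5B, against 3.40% and 14.2% (17.6%). With S_PXT1_K118R over WT_K118R RAB2A was higher and RAB7A lower, against 3.10% and 14.8% (17.9%). With S_PXT1_K118R over S_PXT1 RAB2A was higher and RAB11A lower, against 5.90% and 6.33% (12.2%). With WT_K118R over WT 0 were higher and 2 lower, RAB5B and RAB11B, against 3.75% and 3.92% (7.67%). RAB5B and RAB11B reached a mean of 10 counts only through WT, the library in which both were highest. Without WT their means were 8.75 and 8.50 counts, so their place among the lower genes against WT is read no further. RAB7A reached that mean only through WT and WT_K118R, with a mean of 4.67 counts without them. Its place in comparisons with either of them is likewise read no further. A single gene of 14 is 7.14%, so a count of 0 to 2 is too coarse to set apart from these shares. Comparisons that share S_PXT1, WT or PMSCV are not separate measurements of it.

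The typical member moved little. The median log2 fold over the 14 members was 0.15 in S_PXT1 over PMSCV, beside 0.09 over all 2322 genes, and 0.18 in WT over PMSCV, beside 0.08. It was -0.05 in S_PXT1 over WT and 0.14 in S_PXT1_K118R over WT_K118R, beside -0.01 and -0.02 over all genes. For the K118R libraries over their counterparts it was 0.11 with S_PXT1 and -0.09 with WT, beside -0.03 and -0.01.

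**Figure D3:**
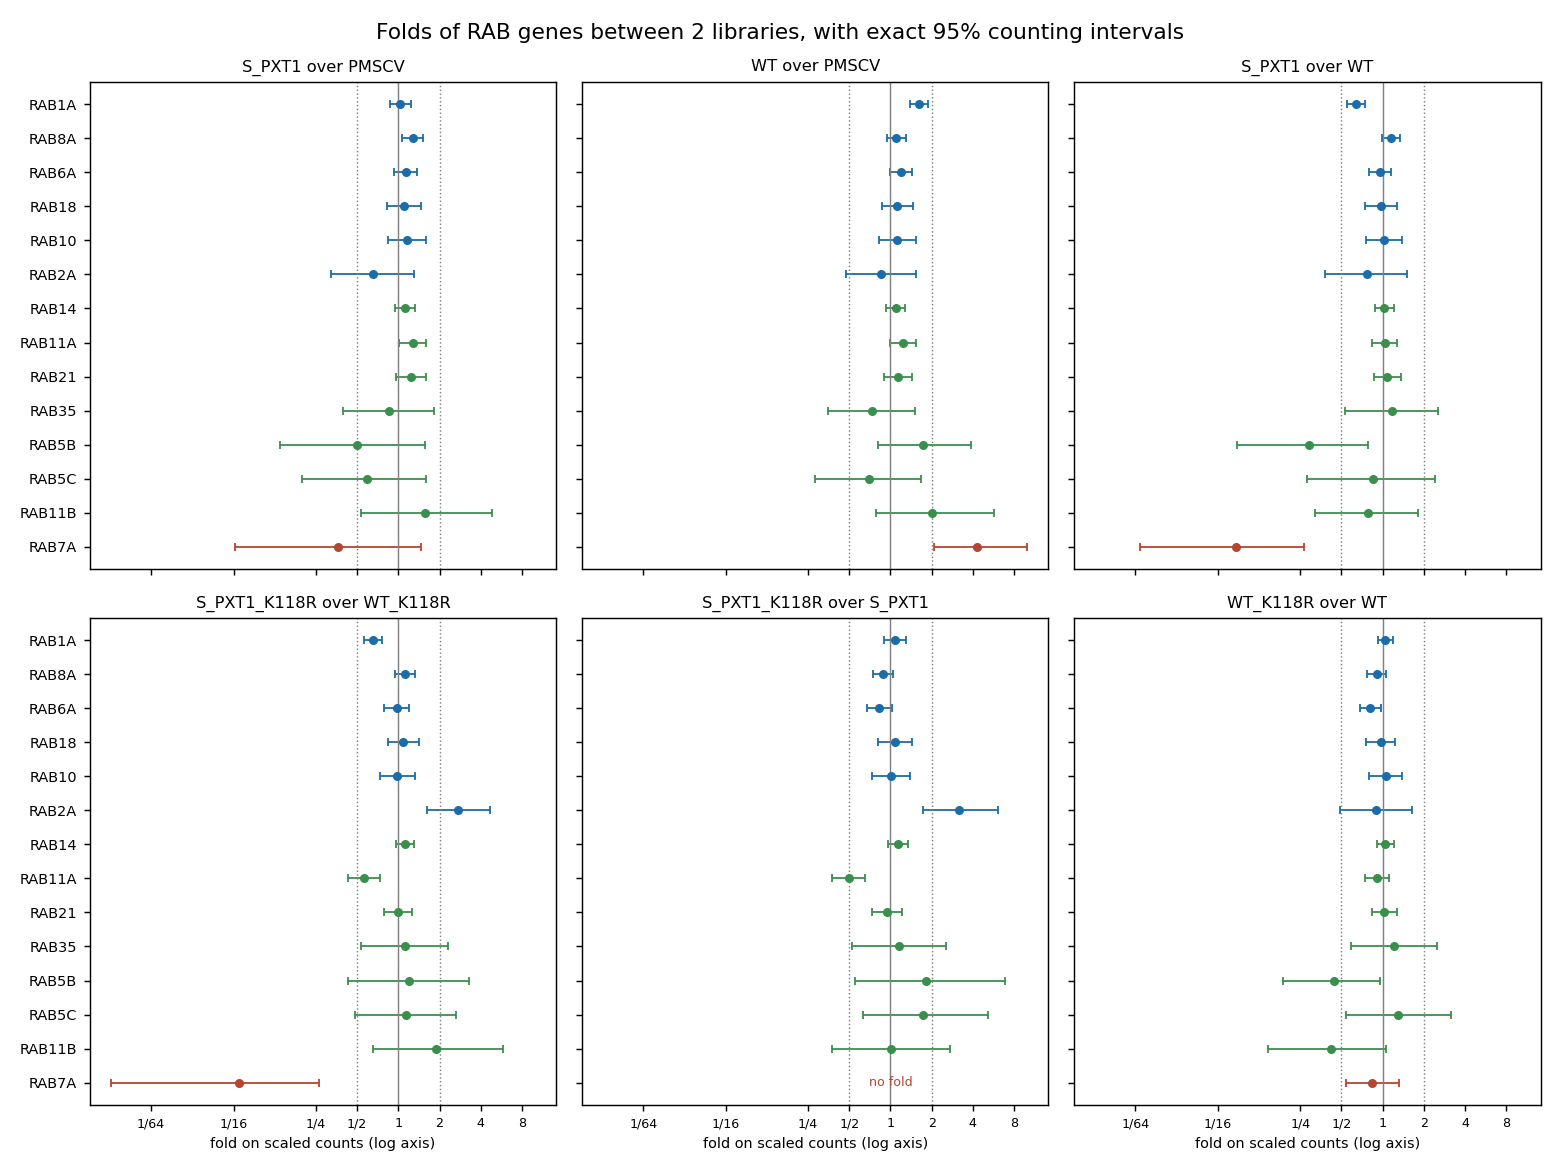
Fold of each of the 14 RAB genes on scaled counts (log axis) in 6 comparisons of 2 libraries, with exact 95% counting intervals; dotted lines mark 2-fold, and blue, green and red mark secretory, early and recycling endosome, and late endosome members. RAB7A lies at 4.29 in WT over PMSCV and at 0.09 and 0.07 in the S_PXT1 over WT and S_PXT1_K118R over WT_K118R panels, and RAB2A at 3.16 and RAB11A at 0.495 in S_PXT1_K118R over S_PXT1.

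The 49 members under a mean of 10 counts were fewer and lower in the S_PXT1 pair. Of these, 11 had a count in S_PXT1_K118R and 15 in S_PXT1, against 27 in WT_K118R, 28 in WT and 23 in PMSCV. Over all rows, 7044, 7393, 11504, 11712 and 11492 genes had a count in the same order. The summed counts of the 49 members were 32 in S_PXT1_K118R, 40 in S_PXT1, 100 in WT_K118R, 94 in WT and 89 in PMSCV. The sum had a fold of 0.49 in S_PXT1 over PMSCV (0.33 to 0.72) and of 0.42 in S_PXT1_K118R over WT_K118R (0.28 to 0.64). No such sum was taken over all genes under that mean, so the RABs are not set apart from them. The number of genes detected and the epithelial and stromal marker sum divided the libraries in the same way. Their part in the difference of these RABs was not tested. RAB3B, a RAB of regulated secretion, had 0 counts in S_PXT1_K118R, 1 in S_PXT1, 8 in WT_K118R, 11 in WT and 4 in PMSCV. RAB31, an endosomal RAB, was at 0 in S_PXT1_K118R, S_PXT1 and PMSCV and had 7 counts in WT_K118R and 5 in WT. RAB13, a RAB of cell junctions, had 0, 4, 4, 5 and 11 counts in S_PXT1_K118R, S_PXT1, WT_K118R, WT and PMSCV.

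The proteins that handle RABs were examined as 4 lists. Of 7 genes of the membrane cycle and prenylation, 1 had a mean of at least 10 counts. GDI2, a GDP dissociation inhibitor, had 9 counts in S_PXT1_K118R, 8 in S_PXT1, 22 in WT_K118R, 30 in WT and 16 in PMSCV. The S_PXT1_K118R and S_PXT1 libraries were the low ones, and GDI2 was 2.81-fold lower in S_PXT1 than in WT (1.26 to 7.10). Its fold was 0.55 in S_PXT1 over PMSCV (0.20 to 1.36) and 0.54 in S_PXT1_K118R over WT_K118R (0.22 to 1.23). Both of these intervals included 1.

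Of 44 exchange factors and their subunits, 4 had a mean of at least 10 counts, and 0 of them were past 2-fold in any of the 6 comparisons, where 7.67% to 19.0% of all genes were. With 4 genes that count is not set apart from those shares. They were DENND5A, a RAB6 partner and exchange factor for RAB39 with 48 to 74 counts, TRAPPC10 and TRAPPC8, subunits of the TRAPP tethering and exchange complexes with 27 to 45 and 12 to 20, and DENND1A, an exchange factor for RAB35 with 13 to 24. Of 33 GTPase-activating proteins 2 entered. TBC1D1, which acts on RABs of glucose transporter vesicles in muscle, had 7 counts in S_PXT1_K118R and 22 in S_PXT1, 3.12-fold lower (1.29 to 8.64), and 16 to 18 in the other 3 libraries. TBC1D14, a protein of recycling endosomes and autophagy, had 10 to 23 counts and was not past 2-fold.

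Of 67 effectors and partners 7 entered. APPL1, an effector of RAB5 on early endosomes, had 2 counts in S_PXT1_K118R, 3 in S_PXT1, 22 in WT_K118R, 29 in WT and 3 in PMSCV. It was 7.95-fold higher in WT than in PMSCV (2.46 to 40.8), 7.25-fold lower in S_PXT1 than in WT (2.25 to 37.2) and 8.29-fold lower in S_PXT1_K118R than in WT_K118R (2.04 to 72.8), on 3 counts or fewer in the lower library each time. The WT_K118R and WT libraries were the high ones. APPL1 passed the minimum only through them, with a mean of 2.67 counts in the other 3, so nothing is read from the likeness to RAB7A. EXOC4, a subunit of the exocyst that tethers secretory vesicles, had 5 counts in S_PXT1_K118R, 15 in S_PXT1, 24 in WT_K118R, 26 in WT and 26 in PMSCV. It was 3.62-fold lower in S_PXT1_K118R than in WT_K118R (1.35 to 12.1) and 2.98-fold lower in S_PXT1_K118R than in S_PXT1 (1.03 to 10.5). EXOC5, another exocyst subunit, had 39 to 53 counts in every library. BICD2, which links RAB6 vesicles to dynein, had 15 counts in WT and 27 in PMSCV, 2.19-fold lower (1.12 to 4.43), and 29 in WT_K118R. VPS11, EXOC7 and KIF16B were not past 2-fold in any of the 6 comparisons, where 7.67% to 19.0% of all genes were. The membrane cycle, GTPase-activating protein and effector lists had 1, 2 and 7 genes entering. With so few genes, their numbers past 2-fold are not set apart from those shares.

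**Figure D4:**
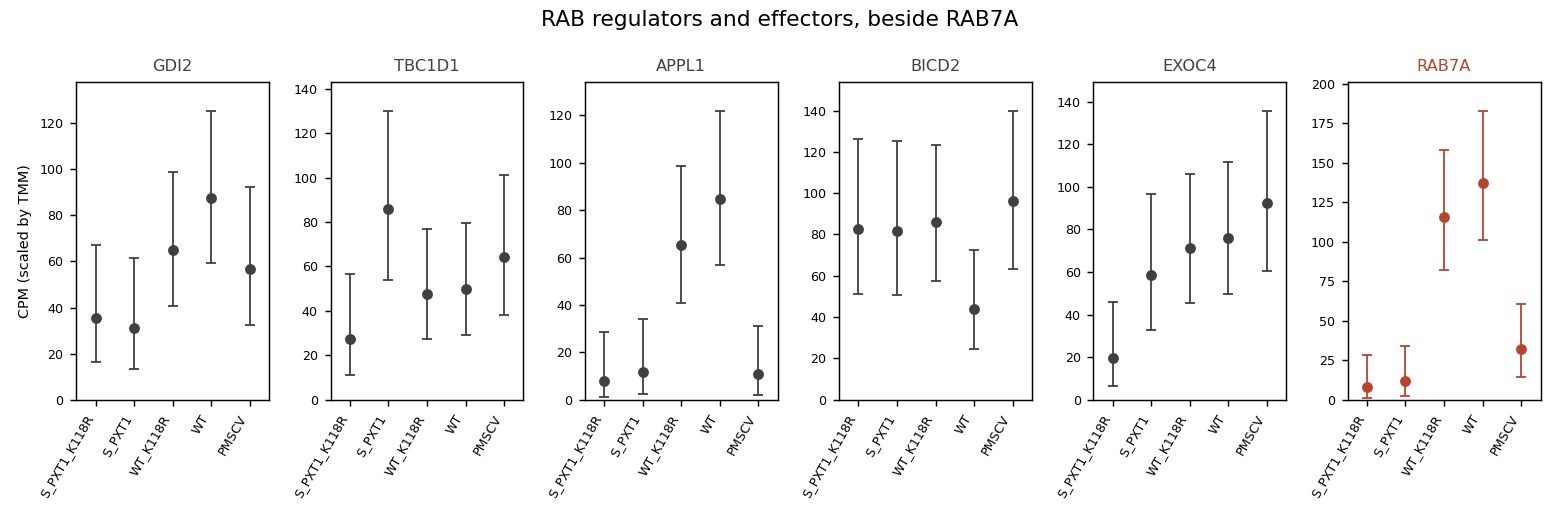
Level of GDI2, TBC1D1, APPL1, BICD2 and EXOC4, each past 2-fold in a comparison, and of RAB7A, in scaled CPM with exact 95% counting intervals for the 5 libraries; axes start at 0 and differ between panels. APPL1 has 22 and 29 counts in WT_K118R and WT against 2 to 3 in the other 3 libraries.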

How the data were processed

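Raw read counts and FPKM, which divides a count by gene length and depth, stand in 1 table that the authors deposited, with a column of each for every library, per the file headers. Cutadapt 1.9, HISAT2 2.2.1 and FastQC appear in the submitters' processing notes without their roles. Counting tool, strand setting, genome build and annotation: not given in the sources used here. Rows carry human identifiers and symbols, although the labels give mouse cells. There were 0 value columns without a library.

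Library sizes were adjusted by the trimmed mean of M values (TMM) in edgeR 4.0.16 under R 4.3.3. A gene entered at a mean of at least 10 counts over the 5 libraries. Folds were taken on scaled counts, with 0 counts set to the floor of 3 counts per library, counts of 1 to 3 used as counted, and no fold where both libraries had 3 or fewer. That floor was 8.77 to 11.8 CPM, and 1 count was worth 2.92 to 3.93 CPM. Exact Poisson and binomial (Clopper-Pearson) 95% intervals cover counting error only, since reads lacking molecular identifiers do not stand for independent molecules. The fold step was tested on simulated data. The 6 comparisons have 1 library a group, so no test across libraries was made. Coding sequences came from the longest complete coding transcript in GENCODE M21. RAB6D was on no list and was put with the unsettled members.

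Every RAB with a mean of at least 10 counts is named with its count in each library, and of the rest those with at least 10 counts in any library or shown for contrast; RAB5A, RAB9A, RAB25, RAB29, RAB31 and RAB38 were chosen for contrast after their values were seen. Of each pathway list up to 4 members past 2-fold were named in each comparison. Members and lists were chosen with earlier results of these data known. Alternatives were size factors from DESeq2 1.42.0, total counts, FPKM, other filters and thresholds, a pseudocount of 1 CPM, and sums over paralogs or overlapping models. TMM without the S_PXT1 and S_PXT1_K118R libraries was added after seeing the data. A gene of the pathway lists is not reported here.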

Additional observations from a re-analysis of the deposited data

Results flagged for a closer look

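For RAB2A, RAB5B and RAB11B the log2 fold of the K118R library over its counterpart was above 0 in the S_PXT1 background and below 0 in the WT background, and at least 1 of the folds was past 2-fold. The log2 fold of RAB2A was 1.66 in S_PXT1_K118R over S_PXT1 and -0.16 in WT_K118R over WT, a difference of 1.82. That of RAB5B was 0.86 and -1.18, a difference of 2.04, and that of RAB11B was 0.01 and -1.26, a difference of 1.27. Each background has 1 library on either side, so the difference between backgrounds was not tested. RAB5B and RAB11B rest on 5 to 23 counts in a library. Both reached a mean of 10 counts only through WT, with means of 8.75 and 8.50 counts without it. WT is the reference of their negative folds, so these 2 differences are read no further. RAB11B had 10 counts in both S_PXT1_K118R and S_PXT1, and the interval of RAB2A in WT_K118R over WT, 0.49 to 1.63, included 1.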

How the results depend on the processing

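The 83 folds of single members included 11 past 2-fold, and 0 of them changed direction under these 5 alternatives. The alternatives reuse the same counts, and the changes of scaling were too small to reverse a 2-fold difference. The unchanged direction is therefore no support for the folds. Of these 11, 10 stayed past 2-fold with DESeq2 size factors, 10 with total counts, 10 with the deposited FPKM, 11 with overlapping models summed and 6 with paralogs summed. Total counts moved the median log2 fold of all genes by -0.12 in WT over PMSCV, and no other scaling or comparison moved it further.

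Counts of members past 2-fold are small, so single genes moved them by more than 1.5 times. With S_PXT1 over PMSCV the count of 2 became 1 with DESeq2 size factors, a mean of at least 20 counts, summed paralogs or a pseudocount of 1 CPM, 8 with no filter, 5 at 1.5-fold and 0 at 3-fold. With WT over PMSCV the count of 1 became 5 with no filter and 4 at 1.5-fold. With S_PXT1 over WT the count of 2 became 1 at a mean of at least 20 counts or with summed paralogs and 6 with no filter. With S_PXT1_K118R over WT_K118R the count of 2 became 5 with no filter, 5 at 1.5-fold and 1 at 3-fold. With S_PXT1_K118R over S_PXT1 the count of 2 became 1 with total counts, FPKM, summed paralogs or 3-fold, 5 with no filter and 4 at 1.5-fold. With WT_K118R over WT the count of 2 became 0 at a mean of at least 20 counts, at 3-fold or with summed paralogs, and 7 with no filter. RAB5B and RAB11B, with means of 11.6 and 10.2 counts, were the genes lost at the stricter filter.

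The summed RAB fold of WT over PMSCV, 1.21, was 1.12 with total counts and 1.13 without RAB1A. Without RAB1A the summed fold was 0.98 in S_PXT1 over WT, against 0.91 with it, and 0.97 in S_PXT1_K118R over WT_K118R, against 0.90 with it. TMM without the S_PXT1 and S_PXT1_K118R libraries left the calls of WT over PMSCV and WT_K118R over WT at 1 and 2. No paired analysis was possible because each group has 1 library. Leaving out a replicate was likewise not possible. A fold against a library with 1 to 3 counts rests on few reads, as its interval shows.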
